A study of Mus musculus with 2 samples.

Results

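The epidermal differentiation complex is a cluster of genes on mouse chromosome 3 that encode building blocks of the outermost layer of the skin. Its RNA was read here in a tissue that is not skin, newborn skeletal muscle. Members were the protein-coding genes whose symbol begins with Lce or Sprr and a number, together with Lor, Ivl, Flg, Flg2, Hrnr, Rptn, Tchh, Tchhl1, Crct1, Smcp and Lelp1. The rule found 47 genes among 21474 protein-coding genes, and all 47 were matched by Ensembl ID in both libraries. The complex itself was chosen on its values in these libraries, since Lor had one of the largest ratios between them, so the ratios of its members are given as a description. Sprr2c-ps and Sprr2g carry pseudogene biotypes, fell outside the rule and had 0 counts in both libraries.

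Total RNA came from skeletal muscle of B6NCrl mice on postnatal day 0, with no treatment and no genotype change given, in 1 group of 2 biological replicates. The labels describe muscle of pup 1 (replicate 1) and of pup 2 (replicate 2) from a single pregnancy, yet give both the same donor entry, so the spread between the libraries may be technical. Neither the muscle that was dissected nor the sex is recorded. Each library began with 10 ng of RNA longer than 200 nt and held 40455042 (replicate 1) and 37151129 (replicate 2) expected counts, the estimated reads per gene. Both libraries carried the label's tissue, since 5 muscle markers (Acta1, Mylpf, Ckm, Tnnt3 and Myh8) summed to 88710 and 98976 TPM, a unit corrected for transcript length. With 1 library per replicate no test was possible, and every ratio below is replicate 1 over replicate 2.

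Keratinocytes leave the basal layer of the epidermis, stop dividing and flatten into dead corneocytes. Beneath their membrane, transglutaminases cross-link loricrin, involucrin, small proline-rich proteins and late cornified envelope proteins into the cornified envelope. Filaggrin and its relatives, which carry an S100-type calcium-binding end fused to long repeats, pack keratin filaments or join the envelope, and trichohyalin does so in hair follicles. The mouse epidermis is stratified and forms a barrier by birth, whereas muscle fibres are not known as a source of these proteins.

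The complex was present in replicate 1 and nearly absent from replicate 2. At or above 1 TPM were 23 of 47 members in replicate 1 and 0 in replicate 2, beside 59.0% and 56.9% of all protein-coding genes. The members summed to 287 TPM in replicate 1 and 1.48 TPM in replicate 2, a mean of 144 ± 202 TPM (SD, n = 2), and to 8667 and 78 whole counts. This mean rests on replicate 1. In scaled counts the sum was 95.8-fold higher in replicate 1 (95% counting interval 76.7 to 121). Of those 78 counts, 54 belonged to Tchh, and without it the sums were 8600 and 24, 309-fold (207 to 482). Intervals and floors cover counting error only, and hold no spread between pups or libraries. Reads copied by PCR are not independent molecules, so even the counting error may be larger than given.

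A filter of at least 10 mean counts was passed by 25 members, and since replicate 2 held so few counts, they passed it through replicate 1, except Tchh. Of these, 24 were at least 2-fold higher in replicate 1, 0 were lower, and Tchh lay between; among all 14706 protein-coding genes past the filter 5.12% were higher and 0.85% lower. At least 16-fold higher were 23 of the 25, beside 1.08% of protein-coding genes. Apart from Tchh, the 25 passed the filter through replicate 1 and so had to be higher there. Their counts beside these shares are therefore a description only. The median log2 ratio of the 25 was 5.53, and 0.02 over all protein-coding genes. Among the 25, 17 had 0 counts in replicate 2, and with these set to the ratio against a floor of 3 counts the median was 5.20. At least 100 counts in replicate 1 were held by 15 members, of which 8 had 0 in replicate 2; of all protein-coding genes with at least 100 counts in replicate 1, 0.265% had 0 in replicate 2.

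**Figure D1:**
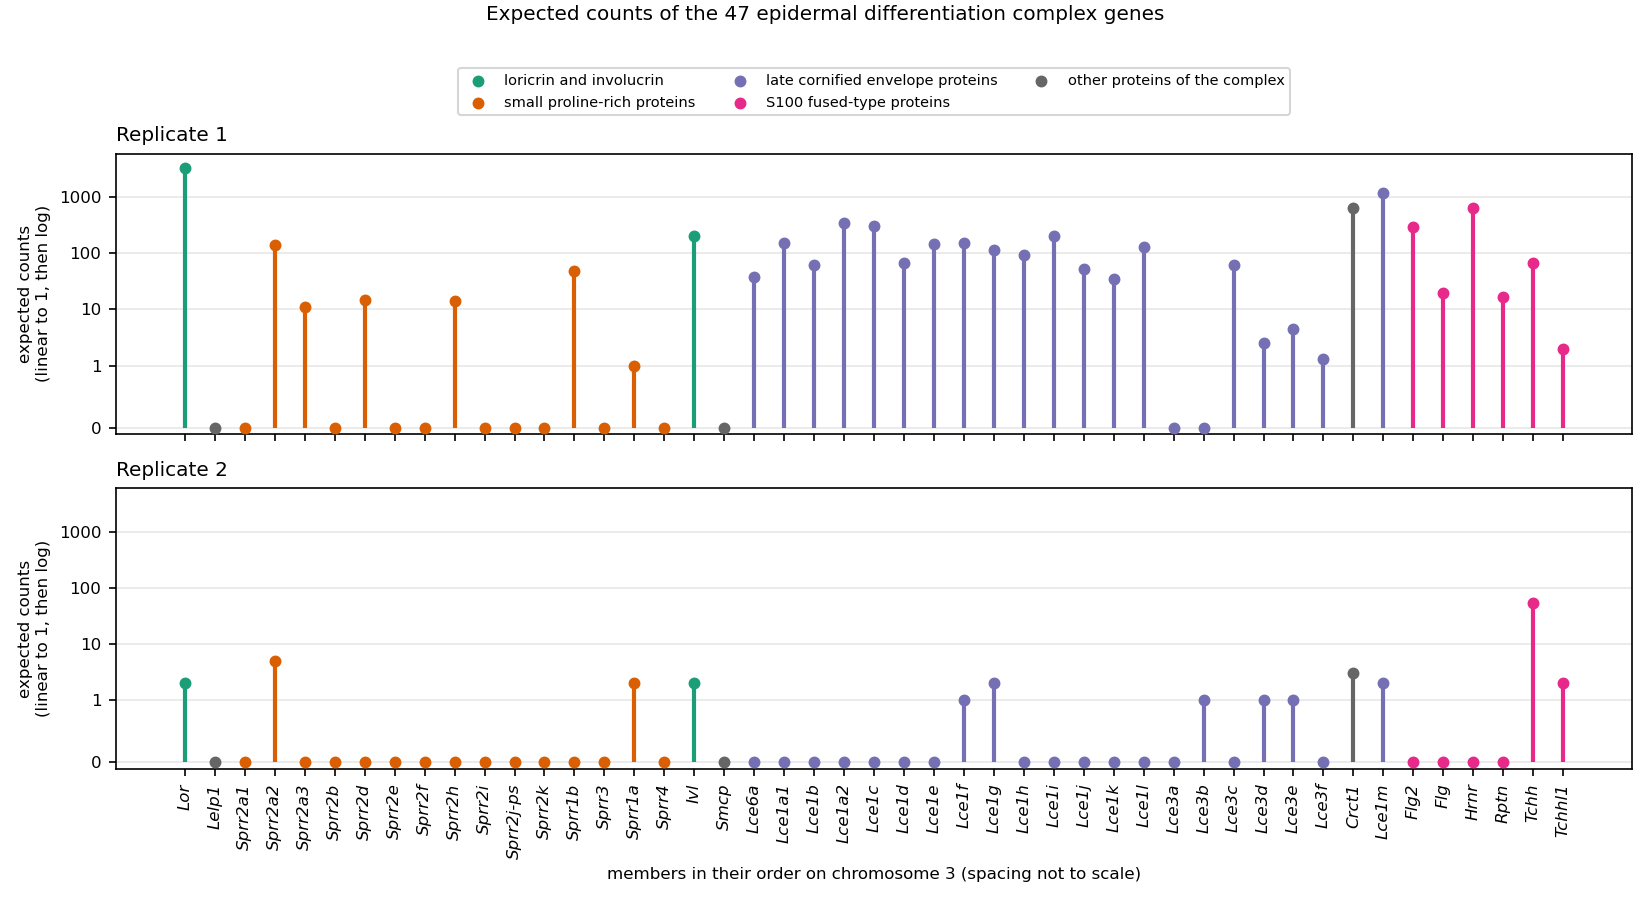
Expected counts of each of the 47 members (vertical axis, linear to 1 count and logarithmic above) in replicate 1 and replicate 2, in their order along chromosome 3, coloured by subfamily. Replicate 1 holds counts for 34 members and up to 3393 for Lor, while in replicate 2 Tchh reaches 54 and every other member 5 or fewer.

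The 47 genes span 1.39 Mb of chromosome 3, from 92080271 to 93471980 (mm10, positions from the GENCODE M21 annotation), with 23 on the plus and 24 on the minus strand. Most have a compact structure, and 44 of their 58 annotated transcripts have 2 exons. RefSeq start sites were available for 44 members, and the 300 bases around them (250 before and 50 after the start, build GRCm38.p6) were searched on both strands. The letters TATAAA, the core of the TATA box that positions the transcription machinery, were in 43.2% of the members' windows, against 13.6% of 32851 RefSeq windows of the same length. A second search took the gene's strand in the 40 to 11 bases before the start, where a TATA box usually lies, without the last few of these bases. There the letters TATAAA were in 34.1% of members and 1.99% of all windows. The letters TGANTCA, the site bound by AP-1 (Jun and Fos family) factors, were in 34.1% and 7.81%. CCAAT was in 25.0% and 37.4%, and AACCNGTT, the Grainyhead site, in 2.27% and 2.09%.

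These motifs were not spread evenly over the subfamilies. TGANTCA was in 9 of 14 windows of small proline-rich genes, 4 of 6 of fused-type genes, both of Lor and Ivl, and 0 of 20 of late cornified envelope genes. As a description beside the counts, TATAAA was in 8 of 23 members with at least 10 mean counts. Below that it was in 11 of 21, and TGANTCA was in 5 of 23 and 10 of 21. The members above and below hold different mixes of subfamilies. Within late cornified envelope genes TATAAA was in 3 of 15 and 1 of 5, and TGANTCA in 0 of 15 and 0 of 5. Within small proline-rich genes TATAAA was in 1 of 2 and 9 of 12, and TGANTCA in 1 of 2 and 8 of 12. The one of the 2 without either is Sprr2a2, whose window lies at 92250397 to 92250696. The transcript that took 96.3% of its counts in replicate 1 begins elsewhere, with a first exon at 92215920 to 92215962. The start of that transcript was not searched for Sprr2a2. The 5 promoters of 150 bases below end at the base before the start. They are Lor and Lce1m as the most abundant of their subfamilies, and, chosen after their values were seen, Ivl and Sprr1b as further envelope genes and Tchh as the member whose ratio was close to 1. Sprr2a2, the most abundant small proline-rich gene, was left out because of this difference in its start. Capitals mark matches to the TATA box, AP-1 and CCAAT letters, none of which overlap. They lie at chr3:92083143-92083292 (Lor, minus strand), chr3:92573736-92573885 (Ivl, minus), chr3:93019062-93019211 (Lce1m, minus), chr3:92438780-92438929 (Sprr1b, minus) and chr3:93442180-93442329 (Tchh, plus), from RefSeq, GRCm38.p6.
Lor: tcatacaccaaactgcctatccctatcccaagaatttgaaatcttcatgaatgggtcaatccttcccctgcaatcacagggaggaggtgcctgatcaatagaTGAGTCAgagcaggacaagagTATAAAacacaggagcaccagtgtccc
Ivl: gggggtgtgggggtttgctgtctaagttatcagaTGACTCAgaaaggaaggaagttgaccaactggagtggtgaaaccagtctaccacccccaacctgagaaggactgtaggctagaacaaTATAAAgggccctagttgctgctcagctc
Lce1m: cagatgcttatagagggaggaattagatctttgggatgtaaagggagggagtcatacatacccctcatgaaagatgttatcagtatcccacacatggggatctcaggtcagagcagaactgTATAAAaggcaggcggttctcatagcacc
Sprr1b: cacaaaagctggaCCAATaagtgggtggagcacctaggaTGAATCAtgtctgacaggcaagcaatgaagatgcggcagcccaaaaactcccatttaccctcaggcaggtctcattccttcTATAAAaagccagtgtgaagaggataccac
Tchh: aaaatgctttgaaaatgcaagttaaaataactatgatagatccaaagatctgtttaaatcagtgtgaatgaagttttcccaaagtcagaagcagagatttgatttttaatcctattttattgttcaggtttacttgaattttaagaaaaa
The TATAAA of Lor begins 27 bases before its start and the TGANTCA match 48 bases before it. In Ivl the same letters begin 29 and 116 bases before the start, and in Sprr1b 30 and 111 bases before it, with CCAAT at 137. Lce1m has TATAAA at 29 bases and no other of these motifs, and Tchh has none. A match describes these letters alone and was not tested as a site.

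Loricrin, the glycine-rich main protein of the mature envelope, led the complex. Lor (ENSMUSG00000043165, chromosome 3, 92080271 to 92083142, minus strand) stood at 67.55 TPM in replicate 1 and 0.04 TPM in replicate 2, and the authors' own interval for replicate 1 was 64.1 to 68.5 TPM. From 3393 and 2 counts the ratio was 1462-fold (95% counting interval 405 to 12080). The log2 ratio was 9.57, which is lower than that fold because 2 prior counts are added to damp low counts. It was the largest log2 ratio of the 11875 protein-coding genes with at least 100 mean counts, ahead of Calm4 (2605 and 2 counts, 9.19), Krt1 (11507 and 17, 9.04), Krt5 (2158 and 2, 8.92) and Krt14 (2533 and 3, 8.82). Since the complex was chosen on the ratio of Lor, this rank is a description and no separate result. Among those 11875 genes are 9 members, which reached 100 mean counts through replicate 1 and so had to rank high. They lay within the top 50 by ratio, 6 of them within the top 20. Involucrin, an early scaffold of the envelope, was rarer: Ivl (ENSMUSG00000049128, 92570902 to 92573735, minus strand) had 3.74 TPM in replicate 1 and 0.04 TPM in replicate 2, from 204 and 2 counts, 87.9-fold (24.0 to 731). Both genes were thus high in replicate 1 alone, and Lor exceeded Ivl there per length. Lor by itself held 23.5% of the members' TPM in replicate 1.

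The coding sequence of Lor has 486 codons, of which 55.3% are glycine and 22.2% serine, while Ivl has 468 codons with 26.7% glutamine and 13.9% glutamate, and glutamine is the residue that transglutaminases join to lysine. Coding bases 61 to 150 of Lor (plus sense of the transcript, GENCODE M21) show the glycine codons in capitals, 23 of 30, because the loops they encode define the protein.
Lor: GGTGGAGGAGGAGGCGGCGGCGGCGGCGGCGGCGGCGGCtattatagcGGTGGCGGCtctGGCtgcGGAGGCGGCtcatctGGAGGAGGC

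The late cornified envelope genes, which encode small cysteine- and serine-rich proteins added late to the envelope, carried the largest share of the complex. Their 21 members summed to 161 TPM in replicate 1 and 0.48 TPM in replicate 2, from 3155 and 8 counts, 340-fold (172 to 788), and made up 56.0% of the members' TPM in replicate 1. At or above 1 TPM were 16 in replicate 1 and 0 in replicate 2. Past the count filter were 16, and 16 of 16 were at least 2-fold higher in replicate 1, beside 5.12% of all protein-coding genes past it. These 16 passed the filter through replicate 1 and so had to be higher there. The Lce1 branch held nearly all of it: all 14 Lce1 genes were at or above 1 TPM in replicate 1, with a sum of 152 TPM, against 0.24 TPM in replicate 2.

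Lce1m (ENSMUSG00000027912, chromosome 3, 93017810 to 93019060, minus strand) was second in the complex, with 51.94 TPM in replicate 1 and 0.09 TPM in replicate 2. Its 1187 and 2 counts gave 512-fold (141 to 4229). Of the others, Lce1a2 had 18.91 TPM, Lce1c 16.25, Lce1i 10.66, Lce1a1 8.49, Lce1e 8.11, Lce1l 7.50, Lce1h 5.05, Lce1d 3.83, Lce1b 3.74, Lce1j 3.01 and Lce1k 2.04 TPM in replicate 1, and each had 0 counts in replicate 2. Against a floor of 3 counts these were at least 100-fold higher for Lce1a2 (348.25 counts), at least 87.4-fold for Lce1c (303.70 counts) and at least 9.77-fold for Lce1k (34.35 counts), the lowest of them. Every such bound takes the count of replicate 1 as it stands, and with its counting error the lower 95% limit was 80.9-fold for Lce1a2 and 70.6-fold for Lce1c. Lce1f had 8.19 and 0.06 TPM, from 153.97 and 1 counts, 133-fold (23.5 to 5277). Lce1g had 4.73 and 0.09 TPM, from 116.71 and 2 counts, 50.4-fold (13.7 to 421). Every Lce1 gene was higher in replicate 1, and levels within replicate 1 spread from 2.04 TPM (Lce1k) to 51.94 TPM (Lce1m).

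The Lce3 branch, known in human skin for its response to injury, was far lower per length. Its 6 genes summed to 5.01 TPM in replicate 1 and 0.24 TPM in replicate 2, from 70 and 3 counts, 20.1-fold (6.61 to 99.9). Lce3c accounted for most of it, with 4.41 TPM from 61.66 counts in replicate 1 and 0 counts in replicate 2, at least 17.8-fold. Lce3e had 4.56 and 1 counts, Lce3d 2.48 and 1, Lce3f 1.31 and 0, Lce3b 0 and 1, and Lce3a 0 in both. Lce6a, the sole member of its branch, had 3.29 TPM from 38 counts in replicate 1 and 0 counts in replicate 2, at least 10.9-fold.

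Family members resemble each other, so reads can be split between copies. Over the 91 pairs of Lce1 genes the coding identity ran from 50.4% to 95.7% (median 83.3%), and between 95.1% and 100% of the 100-base windows of an Lce1 gene occurred in no other gene. The Lce3 genes are closer, at 94.6% to 99.3% identity, with 57.0% to 75.9% of windows unique in Lce3c, Lce3d, Lce3e and Lce3f, and the split of counts among these 4 is uncertain. The late cornified envelope genes had a median of 21.1% cysteine codons. Coding bases 67 to 156 of Lce1m show its cysteine codons in capitals, 9 of 30, mostly in pairs between serine and glycine codons.
Lce1m: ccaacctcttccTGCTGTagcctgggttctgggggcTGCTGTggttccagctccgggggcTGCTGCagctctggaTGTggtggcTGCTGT

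**Figure D2:**
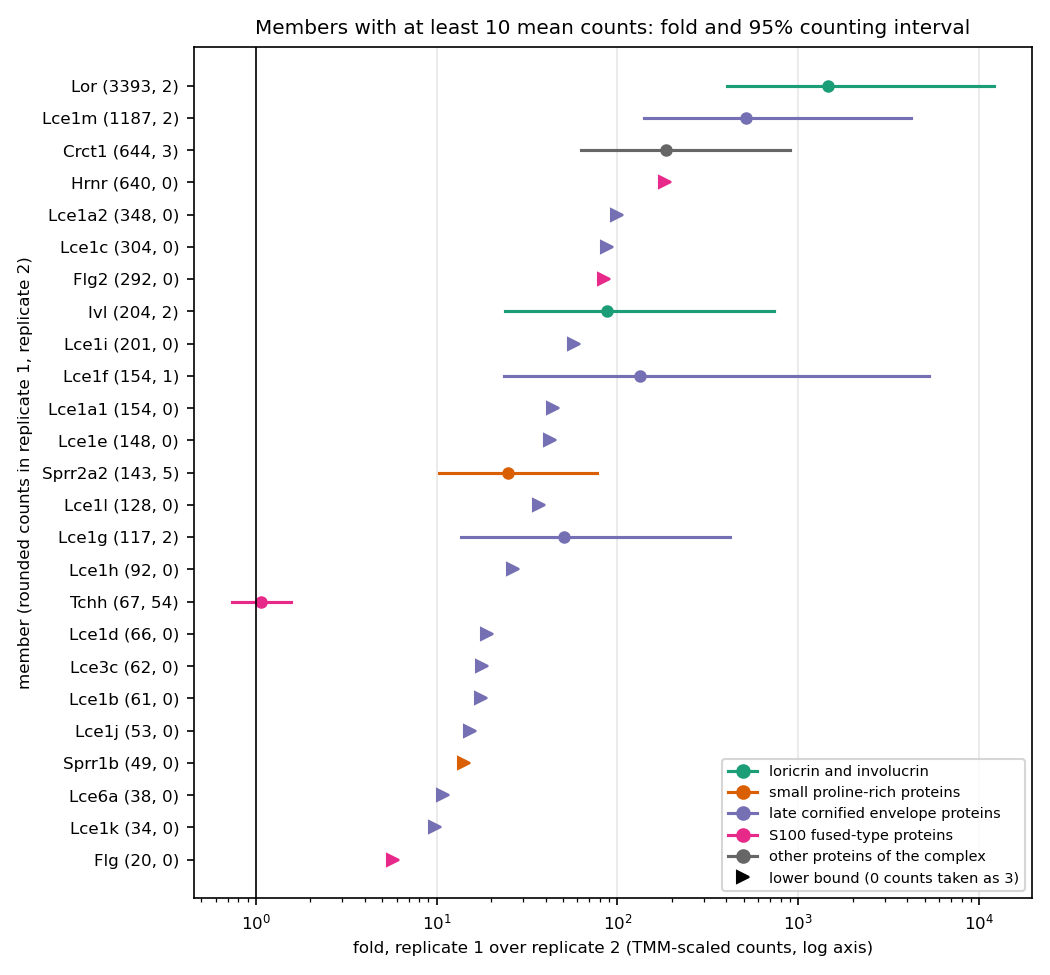
Fold of replicate 1 over replicate 2 in TMM-scaled counts (horizontal axis, logarithmic) for the 25 members with at least 10 mean counts, ordered by their counts in replicate 1, which stand with those of replicate 2 beside each symbol. Points with bars are ratios with 95% counting intervals and arrowheads are lower bounds against 3 counts; Tchh is the only one of the 25 whose interval includes 1.

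The small proline-rich genes, whose proteins cross-bridge the envelope, were mostly without reads. Of 15 members, 9 had 0 counts in both libraries: Sprr2a1, Sprr2b, Sprr2e, Sprr2f, Sprr2i, Sprr2j-ps, Sprr2k, Sprr3 and Sprr4. The family summed to 12.0 TPM in replicate 1 and 0.38 TPM in replicate 2, from 233 and 7 counts, 28.7-fold (13.7 to 72.2), which was 4.16% of the members' TPM in replicate 1. Sprr2a2 led it with 7.45 and 0.28 TPM, from 142.87 and 5 counts, 24.7-fold (10.3 to 77.1). Sprr1b (ENSMUSG00000048455, 92436809 to 92438789, minus strand) had 2.24 TPM from 49 counts in replicate 1 and 0 counts in replicate 2, at least 14.1-fold. Sprr1a, the other Sprr1 gene, had 1 count in replicate 1 and 2 counts in replicate 2 (0.05 and 0.10 TPM), with a coding identity of 78.6% to Sprr1b and no shared window. Sprr2d had 15 and 0 counts, Sprr2h 14 and 0, and Sprr2a3 11.13 and 0. All but Sprr1a among these were higher in replicate 1.

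Which Sprr2a copy the reads came from is uncertain. Of the windows of Sprr2a1 and Sprr2a2, 7.51% and 7.19% occurred in no other gene, and the coding sequence of Sprr2a1 is identical to that of Sprr2a2. The reads were assigned to a transcript of Sprr2a2 (ENSMUST00000090871.2) whose first exon, at chromosome 3, 92215920 to 92215962, lies inside the first exon of Sprr2a1, 92215799 to 92215962. Its second exon lies at 92253886 to 92254564. The 3 Sprr2a genes together had 154 and 5 counts, 26.5-fold (11.1 to 82.9), a sum that does not depend on the split. Sprr2a3 differs from Sprr2a2 at 3 of 249 coding bases, and the differing bases are in capitals in coding bases 61 to 192 of each.
Sprr2a2: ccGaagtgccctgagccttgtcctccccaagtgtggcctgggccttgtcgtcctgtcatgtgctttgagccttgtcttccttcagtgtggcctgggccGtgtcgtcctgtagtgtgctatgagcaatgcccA
Sprr2a3: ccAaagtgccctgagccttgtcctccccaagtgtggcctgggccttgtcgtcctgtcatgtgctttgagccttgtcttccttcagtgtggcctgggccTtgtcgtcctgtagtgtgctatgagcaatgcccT
The proline codons that name the family make up a median of 31.3% of codons over its members, and 14 of 30 in coding bases 25 to 114 of Sprr2a2, where they are in capitals.
Sprr2a2: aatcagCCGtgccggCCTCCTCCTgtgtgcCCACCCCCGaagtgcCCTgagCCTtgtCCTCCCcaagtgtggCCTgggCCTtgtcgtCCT

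The S100 fused-type genes were divided between both libraries and replicate 1 alone. Hrnr (ENSMUSG00000041991, 93319749 to 93333570, plus strand), hornerin, had 640 counts against 0 in replicate 2, at least 184-fold, but 2.03 TPM, since its transcript of 10656 nt is long. Flg2, filaggrin-2, had 5.67 TPM from 292 counts in replicate 1 and 0 counts in replicate 2, at least 83.9-fold. Flg, filaggrin, which bundles keratin and breaks down to the water-binding compounds of the skin surface, had 19.50 and 0 counts (0.15 and 0 TPM), at least 5.75-fold. Rptn, repetin, had 17 and 0 counts, at least 4.88-fold. These 4 summed to 969 and 0 counts, at least 278-fold. Flg is entered with a model of 4523 nt, and in Flg2 a short model of 1551 nt took 74.9% of counts and the full one of 7011 nt 20.0%, so both levels rest on the models used.

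Tchh was the exception of the complex. Tchh (ENSMUSG00000052415, 93442330 to 93449077, plus strand) encodes trichohyalin, a protein with 26.0% glutamate codons that hardens the inner root sheath of the hair and is also made in the tongue. It had 0.39 TPM from 67 counts in replicate 1 and 0.33 TPM from 54 counts in replicate 2, a ratio of 1.07-fold (0.736 to 1.56). It held 69.2% of the members' counts in replicate 2 and 0.773% in replicate 1. Its relative Tchhl1 had 2 counts in each library (0.03 and 0.04 TPM). The 2 genes together had 69 and 56 counts, 1.06-fold (0.736 to 1.54), so no difference was detectable at this depth.

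Of the remaining members, Crct1 (ENSMUSG00000027913, 93014205 to 93015687, minus strand), a cysteine-rich protein gene beside Lce1m, ranked next after it. It had 34.80 TPM in replicate 1 and 0.17 TPM in replicate 2, from 644 and 3 counts, 185-fold (63 to 900). Lor, Lce1m and Crct1 held 53.7% of the members' TPM in replicate 1. Lelp1, related to the late cornified envelope genes, and Smcp, which encodes a protein of sperm mitochondria, had 0 counts in both libraries. Testis germ cell markers were close to 0 as well, with 1 and 1 counts over 5 genes.

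Other genes within the span were read by the same measures. Of 9 other protein-coding genes between Lor and Tchhl1, Kprp, a keratinocyte proline-rich protein gene, had 233 and 0 counts, at least 66.9-fold, and 2310050C09Rik 207 and 0, at least 59.5-fold. Gm9774, between Sprr2 genes, had fewer in replicate 1, with 284.76 and 345.14 counts (7.37 and 9.44 TPM), 0.712-fold (0.607 to 0.835). Crnn and 2310046K23Rik had 1 and 0 counts, 2210017I01Rik 2 and 0, and Prr9, Gm38119 and Gm4858 0 in both. So high counts in replicate 1 beside 0 in replicate 2 were found in genes of the span that the naming rule leaves out, but not in all of them. Farther along the chromosome, the single S100 genes, small calcium-binding proteins that many tissues use, mostly had counts in both libraries, although S100a5 had 0 in both and S100a2 1 and 0. Of 11 past the filter 1 was at least 2-fold higher in replicate 1 and 10 lay within 2-fold, with a median log2 ratio of 0.43. S100a11 had 733.77 and 495.67 TPM, and S100a10 435.06 and 278.68 TPM. The exception was S100a14, an epithelial gene named after its values were seen, with 111 and 1 counts. A list of 10 genes in or near the complex, which holds Kprp and 2310050C09Rik again, had no other gene past the filter, and its 5 Tdpoz genes had 0 counts in both.

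**Figure D3:**
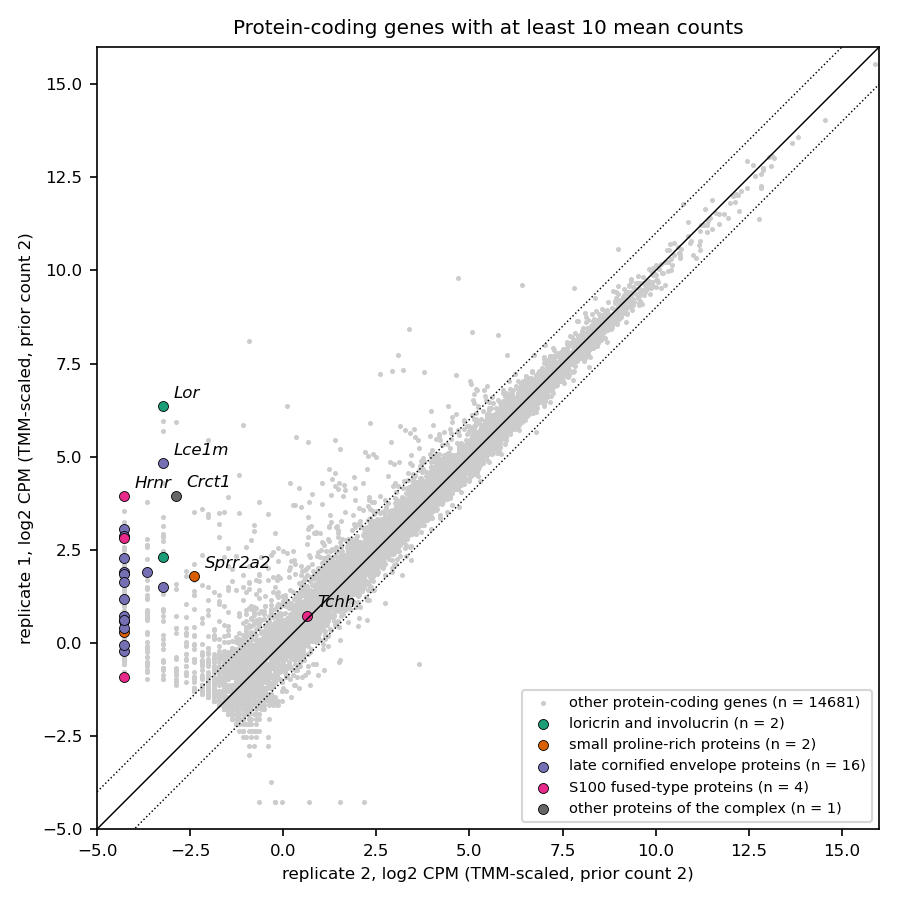
Log2 CPM, counts scaled to library size, of replicate 1 (vertical axis) against replicate 2 (horizontal axis), TMM-scaled with a prior count of 2, for 14706 protein-coding genes with at least 10 mean counts. Grey points are other genes, coloured points the 25 members past the filter, the solid line marks equal values and dotted lines 2-fold; the members other than Tchh lie to the left, above the upper dotted line.

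Genes outside the naming rule that build or process the envelope differed alongside the complex. Of 22 further envelope and desmosome genes, which include Kprp from the span above, 20 passed the filter. Of these, 18 were at least 2-fold higher in replicate 1, 0 lower and 2 within. Their median log2 ratio was 3.94 (3.73 with genes at 0 counts in replicate 2 set to their bound). Beside this list and those that follow, 5.12% of all protein-coding genes past the filter were higher and 0.85% lower. Krtdap, a keratinocyte differentiation protein, had 1760 and 55 counts, Dmkn 1818 and 7, Sbsn 990 and 92, and Cdsn, corneodesmosin, 458 and 25. Plakoglobin, Jup, which muscle and other tissues also use, had 3303 and 2452. Tgm1, the transglutaminase that cross-links the envelope, named after its values were seen, had 129 and 21.

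Of 14 genes that process filaggrin or shed corneocytes, 9 passed the filter, with 7 higher, 0 lower and 2 within, and a median log2 ratio of 6.05 (5.65 at the bounds). Asprv1, a protease that cuts profilaggrin, had 2422 and 15 counts, Casp14, which degrades filaggrin, 481 and 0, and the kallikrein Klk7 366 and 0. Blmh, a widely used hydrolase, had 4404 and 3051, and Klk8 157 and 70. Of 20 barrier lipid genes 19 passed, with 15 higher, 0 lower and 4 within, and a median of 3.68 (3.56 at the bounds). Widely used enzymes of the list lay within 2-fold, such as Smpd1 with 2612 and 2196 counts, Slc27a4 with 666 and 472 and Ugcg with 719 and 703. Elovl4, which makes very long fatty acids, had 666 and 60, and Alox12b, a lipoxygenase of the barrier named after its values were seen, 131 and 0.

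Regulators of keratinocyte differentiation were more evenly split. Of 25 such genes 22 passed, with 12 higher, 0 lower and 10 within, and a median log2 ratio of 1.10. Jun had 5320 and 3786 counts, Nfe2l2 1947 and 1611, Satb1 1160 and 1283, Fos 1222 and 473, and Cebpa 1347 and 172. Of 17 keratins of stratified epithelium, 12 passed, with 10 higher, 0 lower and 2 within, and a median of 5.73 (5.28 at the bounds). Krt10 had 6204 and 214 counts and Krt15 808 and 2. Each of these lists was assembled with results of these data known, so none is independent evidence of the direction. Listed genes with 0 counts in replicate 2 passed the filter through replicate 1 and so had to be higher there. These were 4 envelope and desmosome genes, 3 of filaggrin processing or shedding, 7 barrier lipid genes, 2 regulators and 3 keratins.

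**Figure D4:**
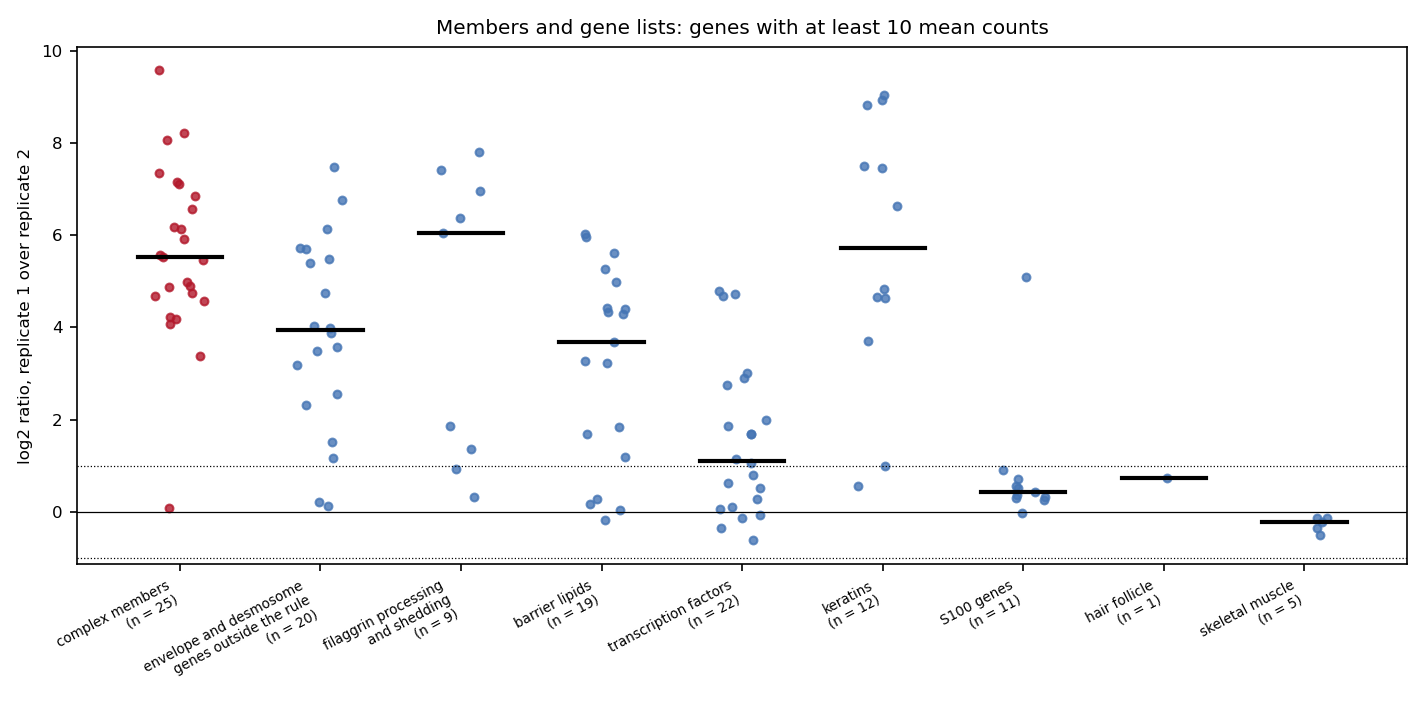
Log2 ratio of replicate 1 over replicate 2 (vertical axis, TMM-scaled, prior count 2) for genes with at least 10 mean counts, by list; each point is a gene, bars are medians, the solid line is 0 and dotted lines mark 2-fold. The members have a median of 5.53, S100 genes 0.43 and skeletal muscle markers -0.23.

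Markers of cell types were summed in both libraries to set beside these values. The 6 markers of basal epidermis summed to 120 and 8.69 TPM, where Krt5, Krt14 and Krt15 were higher in replicate 1 and Trp63 (6.44 and 4.88 TPM), Col17a1 and Itgb4 lay within 2-fold. The 7 of suprabasal epidermis summed to 273 and 4.27 TPM, 6 of 6 past the filter were higher in replicate 1, and Krt2 had 0 counts in both. Of 5 markers of mucosal epithelium none reached 1 TPM, with sums of 0.71 and 0.47 TPM. Krt4, with most of each sum, lay within 2-fold at 42 and 24 counts. Krt13 had 0 and 2 counts, Krt6a 1 and 0, and Krt6b and Krt76 were at 0 in both. Of 7 markers of the hair follicle none reached 1 TPM, with sums of 0.36 and 0.13 TPM. Msx2 had 15 and 7 counts, Foxn1 5 and 0, Krt35 3 and 0, and the sheath keratin Krt28 2 and 1. The sheath keratins Krt25, Krt27 and Krt71 were at 0 in both, beside 67 and 54 counts of Tchh. The 5 of melanocytes summed to 2.86 and 2.40 TPM. The 7 of dermis and fat summed to 4793 and 1089 TPM, of which 4 were higher in replicate 1 and 3 within 2-fold. The 4 are adipocyte genes, Fabp4 (2591.34 and 786.85 TPM), Cfd (1499.19 and 39.99), Adipoq (380.71 and 36.01) and Plin1 (41.22 and 6.83). The 3 within are listed for the dermis, Lum (133.24 and 115.03 TPM), Dpt (118.32 and 74.05) and Crabp1 (29.21 and 29.93). The median log2 ratio of the 5 muscle markers was -0.23. The part of skin in the dissected tissue was not tested in these results. In bulk RNA, fewer cells of a type and less RNA per cell cannot be told apart.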

How the data were processed

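Newborn skeletal muscle RNA was sequenced in 2 libraries, labelled as 2 pups. Extraction was by mirVana, spike-ins were added and a SMARTer low input manual is listed, per the labels' protocols. The authors deposited expected counts (mm10, GENCODE M4, per the accompanying notes), with the posterior mean and its posterior standard deviation. They deposited TPM per gene and transcript, each transcript's percent of its gene's TPM, and bounds of an interval of TPM, a score here. The sources used here name no aligner, quantifier or strand setting.

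GENCODE M21, of the same build, gave symbols, positions and biotypes. Expected counts were rounded, scaled with TMM in edgeR 4.0.16 under R 4.3.3, and log2 CPM took a prior count of 2. No test was run, since no residual degrees of freedom exist. Size factors of DESeq2 1.42.0 were an alternative scaling. Intervals are exact Clopper-Pearson at 95%, given the summed counts; 0 counts were taken as up to 3. Windows of 100 bases, the length that effective lengths imply, were compared over all annotated transcripts. The members, the 15 lists and the motifs were chosen with earlier results of these data known; of the lists, 2 symbols had no match. Named are members at 1 TPM or more, those with at least 3 counts in replicate 2, the fused-type and remaining single members, members without reads, up to 5 leading genes of each list and the 5 largest ratios; any other gene was named with its values known. On simulated counts with the real means, the 2-fold rule was tried before use on changes far larger than 2-fold. Its recovery of changes near 2-fold was not tested. Python 3.11.15, pandas 2.3.3, numpy 2.4.6, scipy 1.17.1, Biopython 1.88 and matplotlib 3.10.9 were used.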

Additional observations from a re-analysis of the deposited data

How the results depend on the processing

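The direction of the complex was the same under each setting that was tried, but the counts left little room for another. Every member except Tchh had 5 counts or fewer in replicate 2. Those past a count filter thus had to be higher in replicate 1 under any of these settings. The count of members at least 2-fold higher in replicate 1 was 24, and 9 with a filter of at least 100 mean counts, which 9 members pass. It was 29 over members with at least 1 count in the libraries together, and 24 at 4-fold. With DESeq2 size factors, total counts, posterior mean counts or deposited TPM it was 24 as well. Under each of these settings 0 members were lower. The median log2 ratio of 5.53 ranged from 4.74 over the 35 members with at least 1 count to 7.15 at 100 mean counts. With a prior count of 0.5 it was 6.95. Members with 0 counts in both libraries entered none of these medians. The log2 ratio of summed counts was 6.58, 7.60 from TPM and 8.27 without Tchh, an alternative chosen after seeing the data. All 25 members kept their side of 2-fold under 5 alternatives, and the log2 ratio of Tchh stayed between 0.09 and 0.19. Members at 1 TPM or more numbered 0 without replicate 1 and 23 without replicate 2, and their summed TPM was 1.48 and 287, so replicate 1 decides each level of the complex. No paired analysis was possible because the series has 1 group. Depth limits the ratios of genes with 0 to 3 counts in replicate 2 to bounds or wide intervals.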
